A study of Mus musculus with 8 samples.

Results

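The mRNAs of 9 nonsense-mediated decay factors, Upf1, Upf2, Upf3a, Upf3b, Smg1, Smg5, Smg6, Smg8 and Smg9, were followed in mouse ovary between total input RNA and RNA recovered with an antibody against DCP1A, an activator of mRNA decapping found in cytoplasmic processing bodies. They were chosen by name and make up 9 of the 23107 genes in the deposited table. Of these, 7 are listed there under their current symbols, while Smg8 and Smg9 stand under the synonyms 1200011M11Rik and 1500002O20Rik that RefSeq lists for them.

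The tissue was ovarian cortex from mice at postnatal day 8, from which 4 input libraries and 4 RIP libraries (RNA immunoprecipitation) were made to ask which RNAs associate with DCP1A in primary oocytes. Both groups share tissue and age. The labels name no genotype or strain, and they do not say whether animals were pooled or whether the libraries of a group came from separate animals. A p-value therefore reflects the spread between libraries that may be technical replicates. Control antibody libraries were not analysed here, and the level of unspecific recovery is unknown.

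Nonsense-mediated decay removes mRNAs on which ribosomes stop too early. The helicase UPF1 is its core. UPF2 and the UPF3 paralogs connect UPF1 to exon junction complexes that splicing leaves on the mRNA, and the kinase SMG1, held in check by its subunits SMG8 and SMG9, phosphorylates UPF1. Phosphorylated UPF1 then recruits SMG6, which cuts the mRNA, or SMG5, which leads to deadenylation and decapping. In human cells the adaptor PNRC2 binds both UPF1 and DCP1A. Several of these factors are encoded by mRNAs that the pathway itself targets in human and mouse cells, and in the mouse Upf2 is needed for spermatogenesis. The values here are levels of the factors' mRNAs and say nothing of where the proteins are.

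Libraries held 13098154 to 25757620 counts, with input libraries 1 and 2 the shallowest. Counts of the decay factors ranged from 125 (Upf2 in RIP 1) to 8636 (Smg1 in input 4), and a count of 125 has a counting error of 8.94%. Of the 72 values, 0 were fractional at a tolerance of 1e-09, so none shows reads shared out between rows of the table. Summed oocyte markers lay between 1170 and 1890 CPM in input and between 1310 and 1670 CPM in RIP. CPM is the count scaled to a common library total that was adjusted with edgeR's TMM factors. Of the 10 oocyte markers, 9 had counts in all libraries, Oosp1 being at 0 in some. Summed granulosa markers ranged from 872 to 2240 CPM in input and from 1150 to 1990 CPM in RIP, and in both groups they were lower in libraries 3 and 4 than in libraries 1 and 2. Summed stromal markers ranged from 1680 to 2320 CPM in input and from 1670 to 2550 CPM in RIP. Markers of other cells were lower, at 45.2 to 96.8 CPM for endothelium, 79.6 to 188 CPM for surface epithelium, 31.8 to 92.6 CPM for smooth muscle and 59.2 to 307 CPM for 3 erythroid genes with Hba-a1 at 0 in some libraries. Summed immune markers were the lowest, at 12.2 to 16.4 CPM in input and 19.1 to 31.1 CPM in RIP, with Ptprc at 0 in some libraries. This sum of 4 genes was the only marker sum whose groups did not overlap. Of all tested genes taken singly, 2.77% lay wholly higher in RIP. The immune markers were not examined singly. The part of these markers in the levels of the decay factors was not tested. In such bulk samples fewer cells of a type and less RNA per cell cannot be told apart.

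All 9 genes passed the filter on low counts and were tested among 14667 genes with edgeR's quasi-likelihood test, with p-values adjusted over all of these genes. None of the 9 passed an adjusted p of 0.05 in either direction, against a background of 0% of all tested genes called higher in RIP and 0.0409% (6 genes) called lower. At an unadjusted p under 0.05, 1 of the 9 was higher, Upf1, and 0 were lower, against a background of 3.15% higher and 4.28% lower. Upf1 was also the one decay factor whose RIP libraries all lay above its input libraries, against 2.77% of all tested genes, and 0 of the 9 lay wholly below, against 2.52%. The median log2 fold change of RIP over input was 0.04 over the 9 genes and -0.02 over all tested genes, with 5 of the 9 positive and 4 negative. Fold changes spread from -0.74 (Upf2) to 0.65 (Upf1).

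Upf1, the helicase at the centre of the pathway (mm10 chromosome 8, 70331493 to 70353423, minus strand), had the largest positive fold change of the 9. Its level, in CPM normalized with TMM factors, was 179.8, 230.1, 153.7 and 196.7 in input libraries 1 to 4 and 365.2, 287.8, 301.5 and 240.9 in RIP libraries 1 to 4. The lowest RIP library, number 4, was just above the highest input library, number 2. Means were 190 ± 32 CPM in input and 299 ± 51 CPM in RIP (SD, n = 4 each). The log2 fold change was 0.65 ± 0.23 (SE), with a 95% interval of 0.17 to 1.14 before adjustment for the number of genes and an edgeR adjusted p of 0.622 (0.0120 unadjusted). Leaving out any 1 library kept it positive, between 0.54 and 0.76. Libraries 1 and 2 alone gave 0.67, and libraries 3 and 4 alone gave 0.63, a split that the labels do not name. Both fits are subsets of the libraries in the main fit, so neither is a separate replication. At its end Upf1 overlaps Gdf1 and Cers1, whose rows held means of at most 3.97 CPM in either group. Whether counting used strand is not given. Summed immune markers also had all RIP libraries above all inputs, as did 2.77% of all tested genes taken singly. Their part in the level of Upf1 was not tested.

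The partners that tie UPF1 to exon junction complexes had lower mean levels in RIP than in input, with groups that overlapped. Upf2 (chromosome 2, 5951447 to 6056703, plus strand) was at 33.2, 25.7, 113.6 and 48.6 CPM in input libraries 1 to 4 and at 9.23, 26.4, 44.6 and 52.1 CPM in the RIP libraries. Input 3 was far above all other libraries and RIP 1 far below them. RIP over input gave a log2 fold change of -0.74 ± 0.50 (edgeR adjusted p = 0.754), with a 95% interval of -1.81 to 0.33. Without input 3 it was -0.10, and without RIP 1 it was -0.43. Libraries 1 and 2 alone gave -0.72, and libraries 3 and 4 alone gave -0.75.

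Upf3b, the X-linked UPF3 paralog (chromosome X, 37091678 to 37110471, minus strand), had a similar course. Its levels were 17.2, 12.9, 65.3 and 17.5 CPM in input libraries 1 to 4 and 10.8, 14.9, 19.0 and 26.5 CPM in RIP libraries 1 to 4. Input 3 was again the highest of all libraries, and the other inputs lay within the range of the RIP libraries. The log2 fold change was -0.67 ± 0.49 (edgeR adjusted p = 0.775, 95% interval -1.71 to 0.37), and it was 0.17 without input 3. Libraries 1 and 2 alone gave -0.23, and libraries 3 and 4 alone gave -0.87.

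Upf3a, the autosomal paralog (chromosome 8, 13785055 to 13798723, plus strand), differed most between the groups in spread. It was at 42.7, 13.2, 101.2 and 58.0 CPM in input libraries 1 to 4, and at 44.6, 50.8, 46.5 and 46.3 CPM in the RIP libraries. The inputs covered a 7.65-fold range around RIP libraries that lay within 1.14-fold of each other. The coefficient of variation was 68.2% in input and 5.62% in RIP. Among the 7334 genes at or above median expression the median coefficient was 31.5% in input and 22.7% in RIP. Of them, 3.33% varied at least as much as Upf3a in input and 2.15% varied as little in RIP. Upf3b and Upf2 varied more than Upf3a in input, at 87.8% and 72.5%, and 0.654% of these genes varied at least as much as Upf3b. The shares are descriptive, since Upf3a was singled out for its spread. The log2 fold change of -0.20 ± 0.42 (edgeR adjusted p = 0.934, 95% interval -1.10 to 0.70) became 0.32 without input 3. Libraries 1 and 2 alone gave 0.77, and libraries 3 and 4 alone gave -0.78.

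**Figure D1:**
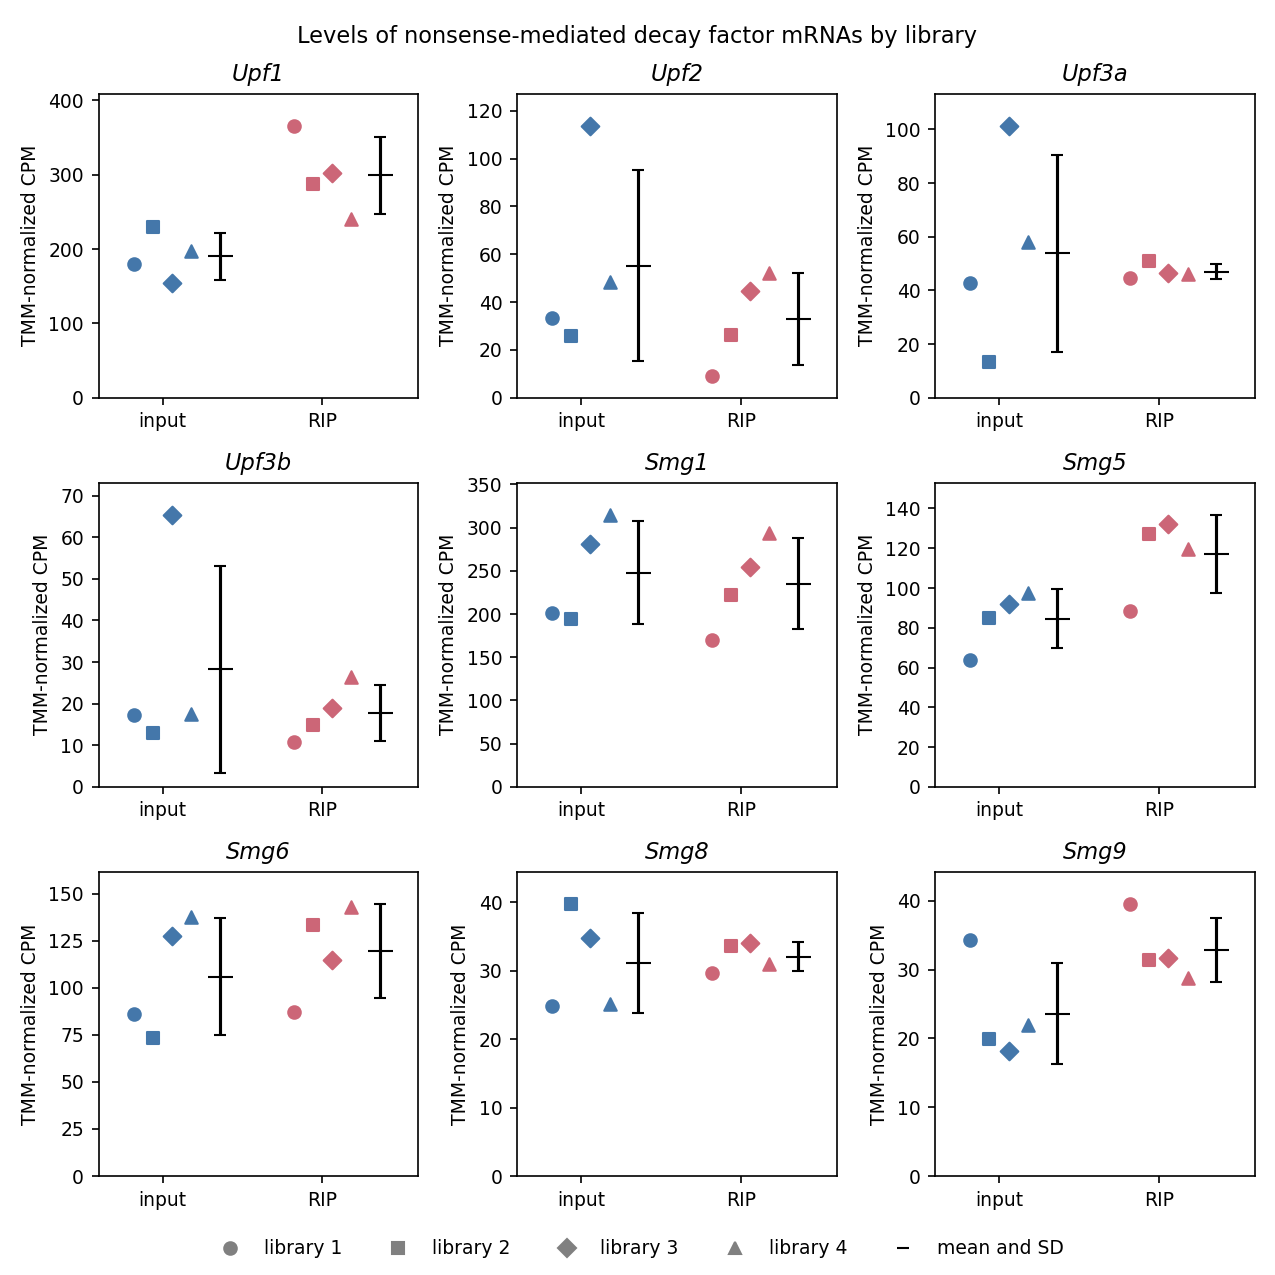
Each panel plots one gene, with TMM-normalized CPM on the vertical axis from 0, input (blue) and RIP (red) libraries as points shaped by library number, and the mean with SD over 4 libraries in black. Upf1 is the panel in which the groups do not overlap, and input 3 is the highest point for Upf2, Upf3a and Upf3b at 113.6, 101.2 and 65.3 CPM.

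Of the kinase complex, Smg1 and Smg8 had fold changes near 0 and Smg9 a positive one, and none passed the test. Smg1, the UPF1 kinase (chromosome 7, 118131308 to 118244437, minus strand), was at 200.7, 194.6, 281.5 and 314.3 CPM in input libraries 1 to 4 and at 169.9, 221.5, 254.9 and 293.7 CPM in RIP libraries. Libraries 3 and 4 were higher than libraries 1 and 2 in both groups, by more than RIP differed from input. Its log2 fold change was -0.08 ± 0.25 (edgeR adjusted p = 0.957), with a 95% interval of -0.61 to 0.46, and it turned to 0.06 without input 4 and to 0.05 without RIP 1.

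Smg8, whose product holds SMG1 activity down in human cells (chromosome 11, 87077732 to 87086777, minus strand), was at 24.9, 39.7, 34.8 and 25.2 CPM in input and at 29.7, 33.6, 34.1 and 30.9 CPM in RIP libraries 1 to 4. All RIP libraries lay inside the range of the inputs. Its log2 fold change was 0.04 ± 0.29 (edgeR adjusted p = 0.981, 95% interval -0.57 to 0.66), and it was -0.05 without input 1 and -0.04 without input 4.

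Smg9, the partner of SMG8 in that complex (chromosome 7, 24397517 to 24422777, plus strand), was at 34.3, 19.9, 18.2 and 21.98 CPM in input libraries 1 to 4 and at 39.5, 31.3, 31.6 and 28.8 CPM in RIP libraries 1 to 4. Input 1 was the one input that reached the RIP range. Each RIP library was above the input library of the same number, as for Upf1 and Smg5, though the labels state no pairing by number. The log2 fold change was 0.48 ± 0.31 (edgeR adjusted p = 0.750, 95% interval -0.19 to 1.14), and leaving out 1 library gave 0.38 to 0.71.

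Of the factors that act on the targeted mRNA, Smg5 had the higher fold change. Smg5 (chromosome 3, 88336259 to 88362338, plus strand) was at 63.6, 85.0, 92.0 and 97.6 CPM in input libraries 1 to 4 and at 88.6, 127.4, 132.2 and 119.7 CPM in RIP libraries 1 to 4. RIP 1 lay within the input range and the other RIP libraries were above every input. On the log2 scale the fold change was 0.47 ± 0.24 (edgeR adjusted p = 0.693, 95% interval -0.04 to 0.98), between 0.35 and 0.58 without 1 library.

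Smg6, the endonuclease of the pathway (chromosome 11, 74925854 to 75164448, plus strand), was at 86.0, 73.0, 127.2 and 137.4 CPM in input and at 86.9, 133.5, 114.7 and 143.1 CPM in RIP libraries 1 to 4. The groups covered nearly the same range. Its log2 fold change was 0.17 ± 0.27 (edgeR adjusted p = 0.902, 95% interval -0.39 to 0.74), 0.47 within libraries 1 and 2 and -0.04 within libraries 3 and 4. The annotated span of Smg6 overlaps Srr at one end and Hic1 at the other, at means of 27.2 and 58.3 CPM in input, and holds 3 pseudogenes and 1 long noncoding RNA gene.

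**Figure D2:**
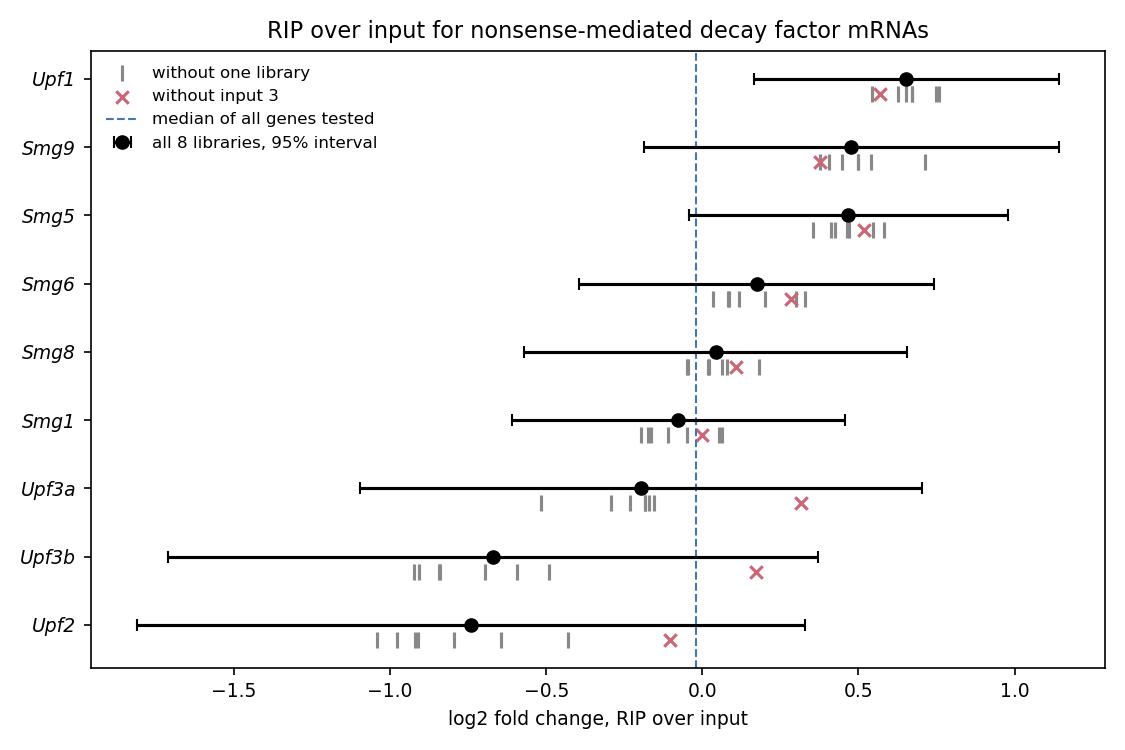
Black points and bars give the log2 fold change of RIP over input on the horizontal axis with its 95% interval before adjustment for the number of genes, grey ticks the values without 1 library each, red crosses the values without input 3 and the dashed line the median of all tested genes. The interval of Upf1 (0.17 to 1.14) lies above 0, those of the other genes span 0, and the crosses of Upf3a and Upf3b lie on the other side of 0 from their points.

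The 9 genes together took 0.0621%, 0.0623%, 0.113% and 0.101% of all counts in input libraries 1 to 4 and 0.0701%, 0.0917%, 0.104% and 0.111% in RIP libraries 1 to 4. The share was thus lowest in inputs 1 and 2 and RIP 1, and the groups overlapped. Means were 0.0844 ± 0.0262% in input and 0.0940 ± 0.0178% in RIP (SD, n = 4 each). With the 10 largest genes left out of the total, input 1 was at 0.0894% and input 3 at 0.129%. This narrowed the gap between them, and inputs 1 and 2 and RIP 1 were still the lowest. RIP 1 was the lowest RIP library for 7 of the 9 genes, while it was the highest RIP library for the other 2, Upf1 and Smg9. Of all tested genes, 35.3% were highest in RIP 1 among the RIP libraries. Among the inputs, number 2 was lowest for 5 genes, and numbers 3 and 4 were highest for 3 each. Inputs 3 and 4 were highest for 29.5% and 21.7% of all tested genes. The share of all genes lowest in a library was not computed.

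Ratios of counts between partner genes within a library do not depend on how libraries are scaled, and 4 were fixed for comparison. The log2 ratio of Upf1 to Upf2 was 2.44, 3.16, 0.44 and 2.02 in input libraries 1 to 4 and 5.30, 3.45, 2.76 and 2.21 in RIP libraries 1 to 4. The ratio was higher in RIP for each of the 4 numbers, though the labels state no pairing by number. RIP 3 and 4 lay inside the input range. The mean of this ratio was 2.01 ± 1.15 in input and 3.43 ± 1.35 in RIP, a difference of 1.41 ± 0.89 (SE, exact two-sided permutation test p = 0.171). Without RIP 1 the difference was 0.79 and without input 3 it was 0.89. The other ratios differed by less.

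The log2 ratio of Upf3a to Upf3b had a mean of 0.93 ± 0.74 in input and 1.48 ± 0.55 in RIP (difference 0.55 ± 0.46, exact permutation p = 0.257, n = 4 each). That of Smg5 to Smg6 was -0.29 ± 0.34 and -0.02 ± 0.19 (difference 0.27 ± 0.20, exact permutation p = 0.257, n = 4 each). That of Smg8 to Smg9 was 0.42 ± 0.69 and -0.03 ± 0.26 (difference -0.44 ± 0.37, exact permutation p = 0.229, n = 4 each). Without 1 library the difference for Upf3a to Upf3b ranged from 0.26 (without input 2) to 0.82 (without input 4), and it was 0.36 without RIP 1. The difference for Smg5 to Smg6 ranged from 0.20 (without RIP 3) to 0.44 (without input 2), and that for Smg8 to Smg9 from -0.74 (without input 1) to -0.25 (without input 2), with -0.27 without input 3. The groups overlapped for each of the 4 ratios, each adjusted p over the 4 was 0.257, and the smallest p these 8 libraries allow is 0.0286. No pair of partner mRNAs was thus shown to be recovered unequally, and the standard errors leave room for sizeable differences.

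**Figure D3:**
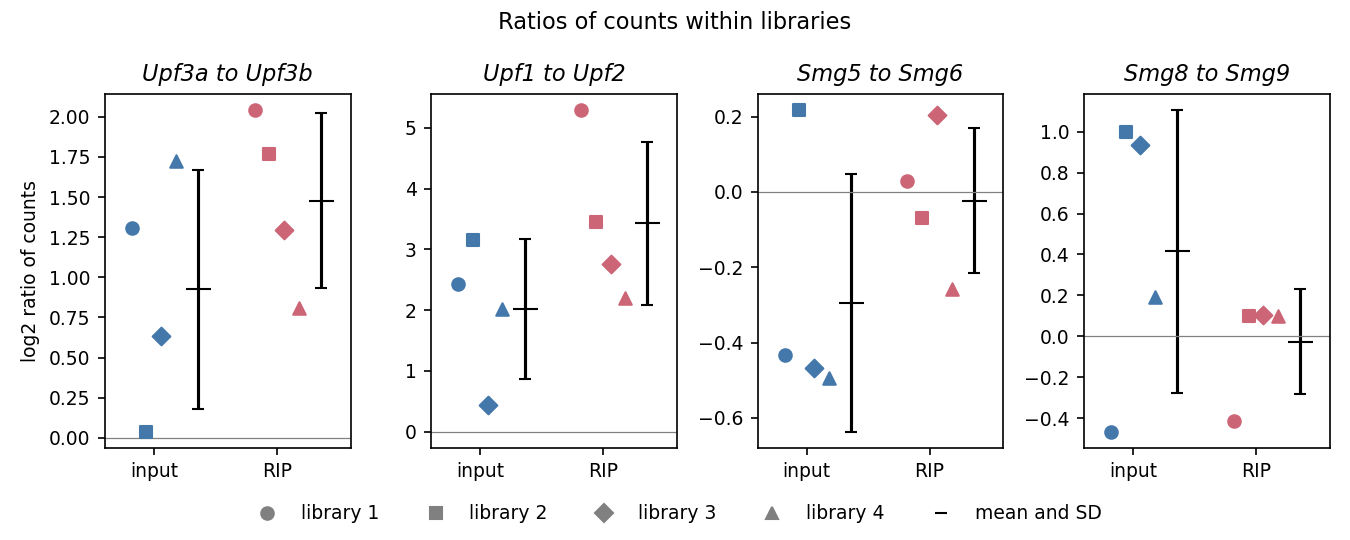
Each panel gives the log2 ratio of the counts of a pair of genes in each library (vertical axis), with input in blue, RIP in red, point shapes for the library number and the mean with SD over 4 libraries in black. The ratio of Upf1 to Upf2 runs from 0.44 in input 3 to 5.30 in RIP 1, and input and RIP points overlap in every panel.

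Other factors of the pathway had a median log2 fold change of 0.08 over 8 genes tested, with 0 called in either direction by edgeR after adjustment, and 1 each way, Dhx34 higher and Pnrc2 lower, had an unadjusted p under 0.05, against the same background of 3.15% and 4.28%. Pnrc2, the adaptor between UPF1 and DCP1A in human cells, averaged 38.6 ± 21.1 CPM over inputs and 19.2 ± 5.5 CPM over RIP libraries (log2 fold change -1.01 ± 0.41, edgeR adjusted p = 0.622), and its fold change was -0.65 without input 3. The RNA helicase gene Dhx34, whose product promotes UPF1 phosphorylation in human cells, was at 44.1 ± 15 and 75.7 ± 41.6 CPM (0.78 ± 0.35, 0.32 without RIP 1). The termination factor genes Etf1 and Gspt1 were at -0.54 ± 0.27 and -0.34 ± 0.24 on the log2 scale, and at -0.32 and -0.22 without input 3.

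Genes of the exon junction complex had a median of -0.25 over 10 genes tested, 8 of them negative where 7578 of all 14667 tested genes were, with 0 called in either direction and 0 at an unadjusted p under 0.05 by edgeR. The core component gene Casc3 averaged 77.9 ± 14 CPM over inputs and 106 ± 15 CPM over RIP libraries (log2 fold change 0.44 ± 0.24), and the core component gene Magoh at 63.8 ± 15.1 and 44.1 ± 14.6 CPM (-0.53 ± 0.30). Pnn (-0.78 ± 0.48) turned to 0.11 without input 3, and Rnps1 (-0.34 ± 0.27) was at -0.17 without input 4. Without RIP 1, Magoh was at -0.35.

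Transcripts known from mouse or human cells to be sensitive to nonsense-mediated decay had a median of -0.13 over 20 genes tested, 8 positive and 12 negative, where all tested genes held 7089 positive and 7578 negative. By edgeR 0 were called after adjustment, while 2 had an unadjusted p under 0.05, both of them higher, against the background of 3.15% higher and 4.28% lower. Ern1, which encodes the stress sensor IRE1, averaged 204 ± 60 CPM over inputs and 327 ± 33 CPM over RIP libraries (log2 fold change 0.68 ± 0.24, edgeR adjusted p = 0.622). The noncoding snoRNA host Gas5 was at 196 ± 86 and 363 ± 141 CPM (0.89 ± 0.36, edgeR adjusted p = 0.622). Arc (-0.91 ± 0.52) and Snhg1 (-0.91 ± 0.57) had the lowest p of the negative ones, and both were at -0.45 without input 3. Dcp1a itself, whose protein the antibody binds, had a log2 fold change of 0.04 ± 0.26.

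**Figure D4:**
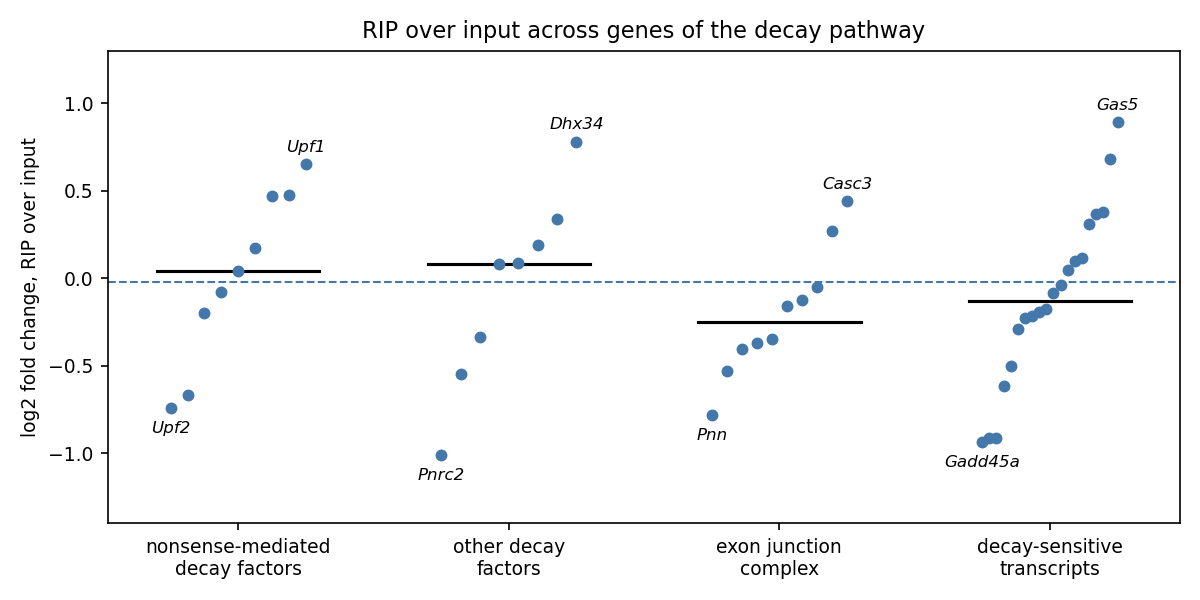
Points give the log2 fold change of RIP over input of each gene in 4 groups of the pathway, ordered by value within a group, with black lines at the group medians (0.04, 0.08, -0.25 and -0.13) and a dashed line at the median of all tested genes (-0.02). The lowest and highest gene of each group are named, and no point passed the adjusted threshold.

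Over the 8 libraries, the genes whose log2 CPM most resembled the mean standardized level of the 9 decay factors were the steroidogenic enzyme gene Hsd3b1 (Pearson r = 0.979), the HSP90 co-chaperone gene Ahsa1 (r = 0.977) and the calmodulin-dependent kinase gene Camk2g (r = 0.970). These were picked as the highest of 7210 genes, of which 247 had an r above 0.8, and the points share depth and scaling within each library, so the values are descriptive.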

How the data were processed

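Per the labels' protocols, a Magna RIP kit served to isolate bound RNA, and a stranded total RNA kit for low input served for the libraries. Per the submitters' processing notes, mm10 was the genome build. The aligner, counter, annotation and strand setting were not given in the sources used here. The table deposited by the authors holds estimated counts (expected counts), of which at most 1.85% per library were fractional, and these were rounded. The planned test assumed whole counts and was kept. Names and coordinates come from RefSeq, assembly GRCm38.p6, a patch release of mm10 (20546 genes matched by symbol, 2261 by synonym, 300 unmatched).

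The groups were compared with edgeR 4.0.16 in R 4.3.3 (TMM, filterByExpr with minimum count 10 and minimum total 15, robust quasi-likelihood test, Benjamini-Hochberg adjustment over 14667 genes, threshold 0.05). The approximate SE is the fold change over the root of F. Ratios used counts plus 0.5. DESeq2 1.42.0, limma 3.58.1 voom, other scalings and filters, blocks and left-out libraries were alternatives. The test was also run on data simulated from the main fit with known changes. Transcript lengths were not used here, so levels were not compared between genes as the design had planned. All 9 decay factors are named. Of the other lists, up to 4 genes with the lowest p are named, and one planned gene is not reported here. The members, lists and tests were chosen with earlier results of these data known.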

Additional observations from a re-analysis of the deposited data

Results flagged for a closer look

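Among 28 sets of 4 libraries examined (each decay factor, each ratio and the summed share, in input and in RIP), 3 held a library far from the others by Dixon's test, which flags about 1 in 20 such sets by chance. Upf3b was at 65.3 CPM in input 3, with a gap to the next input of 0.911 of the range of the inputs. The log2 ratio of Smg5 to Smg6 was 0.219 in input 2 and lower in the other inputs, with a gap of 0.915 of the range. The log2 ratio of Smg8 to Smg9 was -0.412 in RIP 1, with a gap of 0.985 of the range to RIP libraries 2 to 4, which lay between 0.10 and 0.11.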

How the results depend on the processing

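None of the 9 decay factors was called in any of the 24 alternative fits. The 4 ratios kept their direction, while their differences moved by over 1.5 times without single libraries. No ratio passed its unpaired exact permutation test with all libraries. Without 1 library the exact permutation test cannot go below p = 0.0571, so those tests could not pass 0.05 and decide nothing. The share of counts was 0.0096 percentage points higher in RIP than in input. This difference was 0.0022 without input 1 and also without input 2, and 0.019 without input 3. Over all genes the main counts were 0 higher and 6 lower. They were 28 and 55 by DESeq2, 0 and 20 by limma voom with sample weights, 12 and 43 with libraries 1 and 2 against 3 and 4 as a block, and 3 and 24 within libraries 1 and 2. Leaving out 1 library or both of 1 number gave 0 to 1 higher and 1 to 16 lower, with 15 lower without input 3 and 16 without RIP 1. With the replicate number as a block the counts were 13 and 42. Numbers were not taken to pair the libraries, since the labels state no pairing. The correlation of deviations between input and RIP was 0.14, 0.07, 0.17 and 0.12 for equal numbers 1 to 4. For unequal numbers it ran from -0.22 to 0.23, so these values do not settle whether numbers pair the libraries. With the replicate number as a block the log2 fold change of Upf3a was 0.092. Exact paired permutation tests of the ratios cannot go below p = 0.125, so they could not pass 0.05 either.

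For the directions that turned, the cause was not tested. Over fits that left out libraries, Upf3a ranged from -0.56 to 0.32, Upf3b from -1.10 to 0.17, Smg1 from -0.196 to 0.063, Smg6 from -0.025 to 0.33 and Smg8 from -0.050 to 0.18. Within libraries 1 and 2, Upf3a was at 0.77, Upf3b at -0.23 and Smg8 at -0.033, and within libraries 3 and 4 Smg6 was at -0.041. Upf1, Smg5, Smg9 and Upf2 kept their sign in each of the 24 fits. The lowest adjusted p of Upf1 was 0.119 by edgeR, with libraries 1 and 2 against 3 and 4 as a block, and it was 0.248 by DESeq2. The labels name no such block.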
